A study of Mus musculus with 24 samples.

Results

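Aged hippocampi were compared after a course of injections with either the platelet fraction of young mouse plasma or saline. The comparison used 11 of the 24 libraries of the study: the hippocampi of 6 mice given the young platelet fraction (mice 7145, 7148, 7151, 7154, 7157 and 7595) and of 5 mice given saline (mice 7143, 7146, 7152, 7155 and 7596). All 11 mice were C57/Bl6 males aged 20 months with no engineered allele named, and each received 8 injections of 100 µl into the tail vein over 24 days. Donors of the fraction were 3 months old. Their plasma was spun again, and the pelleted platelets were taken up in saline, so that saline was the vehicle of both groups. By the study's methods mice were perfused with buffered saline before the hippocampus was taken. The 6 hippocampi of mice given the young blood plasma preparation served here only for a direct comparison of the treatments, and the 7 libraries of isolated microglia were not used here. A gene entered the comparison where its normalized count, its reads over a factor for library size, reached 10 in at least 5 of the 11 libraries, which held for 13603 of the 24411 genes listed. Every hippocampus was 1 mouse, so n counts mice.

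Platelets are cell fragments without a nucleus that carry granules of chemokines and growth factors, and release them on activation. They circulate outside the brain, whereas the hippocampus holds the granule cells of the dentate gyrus, the pyramidal cells of the CA fields, interneurons, astrocytes, microglia, vessels and the oligodendrocytes that wrap axons in myelin. Oligodendrocytes arise from precursor cells, pass through a newly formed stage and then make the proteins and lipids of the sheath, under transcription factors such as Olig1 and Sox10. A bulk library averages over all of these cells, and fewer cells of a type and less RNA per cell cannot be told apart in it.

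The 5 saline libraries held 6140510 to 10522699 reads over the listed genes and the 6 platelet fraction libraries 6763608 to 7438930, with 16203 to 16671 genes detected per library. On the first principal component, which took 30.4% of the variance, saline mice 7146 and 7152 and platelet fraction mouse 7148 stood apart from the other 8 libraries, which lay close together. On the second, with 17.0%, platelet fraction mice 7154, 7157 and 7595 lay at one end. Markers of the hippocampus were present in every library: Mbp of compact myelin had 25800.0 to 69085 normalized counts, Gfap of astrocytes 7902 to 12681 and Prox1 of dentate granule cells 339.8 to 629.6. Of the transcripts that define platelets, Ppbp, which encodes a platelet chemokine, had 1 read in 1 of the 11 libraries, and Pf4, platelet factor 4, had 4.9, 3.47, 4.43, 7.82 and 4.86 normalized counts in the saline mice and 3.3 to 14.4 (median 7.27) in the platelet fraction mice. Pf4 is also made by macrophages of the brain borders, and it stayed under the filter and was not tested. Of the 24 genes on a list of platelets and megakaryocytes 8 could be tested, and none of them passed the limma threshold given below in either direction. Gp5, a glycoprotein of the platelet surface, had 13.9, 16.7, 23.9, 14.5 and 18.2 in the saline mice and 15.9 to 34.9 (median 24.4) in the platelet fraction mice. Its groups overlapped, and its log2 fold change was 0.51 ± 0.25 SE (exact permutation p = 0.0541). edgeR called it higher, as did limma without saline mouse 7152 or without platelet fraction mouse 7595 (limma P of 0.0299 and 0.0187). Itga2b, the integrin αIIb subunit, had a log2 fold change of 0.22 ± 0.39 SE.

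The threshold was that of the study, an unadjusted P of 0.05, here from limma on log2(normalized count + 1), and "rose" and "fell" are used below only of genes past it. Exact permutation p-values are two-sided, compare the same log2 values over mice, and are given beside the limma calls for the genes described in full. With it 527 genes were called, 3.87% of those tested, of which 328 (2.41%) were higher and 199 (1.46%) lower after the platelet fraction. That is below the 5% that such a threshold lets through where no gene differs. No gene passed a Benjamini-Hochberg adjusted p of 0.05 in limma or in edgeR, and the smallest limma adjusted p was 0.785, while DESeq2 on the recovered reads passed 11. The calls are therefore an ordering of the genes by the size of their difference against the spread between mice. The median log2 fold change of all genes tested was 0.002, and 50.5% were positive. The counts of calls in each list below stand beside the 2.41% higher and 1.46% lower of all genes.

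The called changes were modest. The median fold size was 1.41 among the 328 higher genes and 1.27 among the 199 lower ones, and 26 of the 527 exceeded a log2 fold change of 1, 20 of them higher. With TMM scaling in place of the deposited size factors the split moved to 279 higher and 256 lower. In 19 genes every platelet fraction mouse lay above every saline mouse and in 16 below, together 0.257% of the genes tested. The counts depended on single mice. Without platelet fraction mouse 7145 the number of calls was 876 and without platelet fraction mouse 7148 it was 797, while without platelet fraction mouse 7157 it was 347. Higher calls were 530 without mouse 7145. Lower calls were 115 without saline mouse 7152, 128 and 132 without platelet fraction mice 7157 and 7154, and 346 and 356 without mice 7145 and 7148. Left out together after seeing the data, mice 7154 and 7157 took the calls to 230, of which 180 were among the 527.

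**Figure D1:**
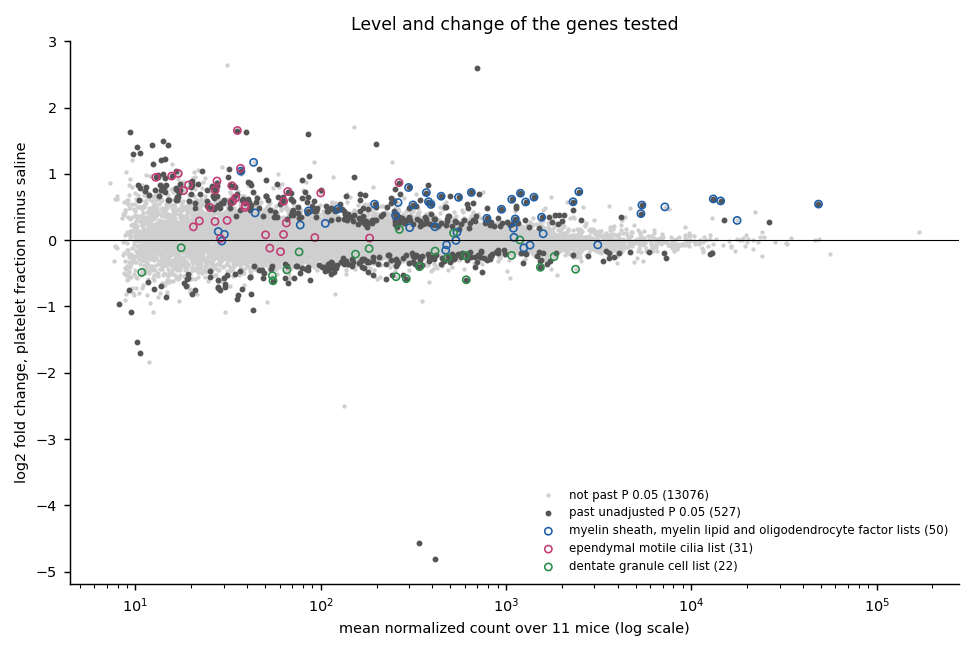
Mean normalized count over the 11 mice (x axis, log scale) against the log2 fold change of the platelet fraction over saline (y axis) for the 13603 genes tested, each point a gene, with the 527 past an unadjusted P of 0.05 in dark grey. Rings mark 3 groups of gene lists. The blue rings of the oligodendrocyte lists lie mostly above 0 over the whole range of levels, whereas the green rings of dentate granule cells lie mostly below it.

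Genes of oligodendrocytes gave the most calls of any group of lists. Of the 50 genes tested on the lists of myelin sheath, myelin lipid synthesis and oligodendrocyte transcription factors, 28 rose and 0 fell, and they were 8.54% of all higher genes. In the myelin sheath list 20 of 24 genes rose, 83.3% beside 2.41% of all genes. Its median log2 fold change was 0.59, beside 0.002 over all genes tested. The lists were drawn up with earlier results of these data known, so their counts describe these libraries and are no independent evidence of direction.

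The promoters of 3 of these genes are shown because their transcripts rose and because SOX proteins, among them the oligodendrocyte factor SOX10, bind DNA at sites with the core letters ACAAAG. Each is the 250 bases before the start site in RefSeq on GRCm38.p6, the assembly of mm10, printed 5′ to 3′ along the strand of the gene, with ACAAAG or its reverse complement in capitals. The Opalin window is chr19:41077114-41077363 on the minus strand, the Mobp window chr9:120149492-120149741 on the plus strand and the Apod window chr16:31314809-31315058 on the minus strand.
Opalin: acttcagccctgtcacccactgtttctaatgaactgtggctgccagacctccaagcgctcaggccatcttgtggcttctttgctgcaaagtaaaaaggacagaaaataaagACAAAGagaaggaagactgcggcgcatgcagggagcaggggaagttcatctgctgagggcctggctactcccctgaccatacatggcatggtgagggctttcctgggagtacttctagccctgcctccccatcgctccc
Mobp: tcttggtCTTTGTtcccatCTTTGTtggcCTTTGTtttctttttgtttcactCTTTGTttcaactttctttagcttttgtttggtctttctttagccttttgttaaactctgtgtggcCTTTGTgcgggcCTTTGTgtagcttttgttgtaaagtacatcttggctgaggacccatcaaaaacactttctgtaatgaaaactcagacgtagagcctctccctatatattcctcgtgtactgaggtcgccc
Apod: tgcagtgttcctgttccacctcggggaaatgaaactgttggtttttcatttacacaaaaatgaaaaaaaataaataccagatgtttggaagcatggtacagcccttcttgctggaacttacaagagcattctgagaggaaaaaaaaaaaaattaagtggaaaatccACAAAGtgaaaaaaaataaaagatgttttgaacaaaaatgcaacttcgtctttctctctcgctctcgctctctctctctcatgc
Opalin and Apod held 1 match each, 133 and 78 bases before the start, and Mobp held 6, all on the other strand. ACAAAG lay on either strand in 6 of the 17 myelin sheath genes with a window in RefSeq, 35.3%. It lay in 6 of 21 called oligodendrocyte genes with a window, 28.6%, and in 4447 of 27025 genes in all, 16.5%. Each of the 3 windows shown holds a match, so they are not typical of these sets. A match of these letters is a description of the window and not a binding site.

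Apod, chr16:31296192-31314808, encodes apolipoprotein D, a lipid carrier that oligodendrocytes and astrocytes secrete, and had the smallest P of all genes. Its normalized counts were 1107, 901, 1084, 1291 and 1007 in the saline mice and 1405 to 2177 (median 1623) in the platelet fraction mice. No platelet fraction mouse overlapped the saline mice. The rise was 1.57-fold (log2 0.65 ± 0.12 SE, limma P = 0.000115, adjusted p = 0.785), and the exact two-sided permutation test gave p = 0.00216, the smallest that 462 splits allow.

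Opalin, chr19:41061959-41077113, a membrane protein of the myelin paranode, had 250.1, 165, 172, 204 and 275 in the saline mice and 284 to 463 (median 375) in the platelet fraction mice, again without overlap. It rose 1.73-fold (log2 0.79 ± 0.16 SE). Mobp, chr9:120149742-120181488, a basic protein of the sheath, had 2522, 1276, 1521, 1752 and 2132 against 2275 to 3321 (median 3223). Platelet fraction mouse 7145 alone lay within the saline range of Mobp, and the rise was 1.66-fold. Tmem88b, chr4:155781591-155785874, a transmembrane protein of oligodendrocytes, went from 364, 205, 207, 270.4 and 301 to 381 to 527 (median 499). It rose 1.78-fold without overlap between the groups. These 4 genes were picked by their small P, so the separation of the groups adds nothing to the test.

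Other sheath genes rose as well. Mbp, which encodes myelin basic protein, had 53460.0, 25800.0, 32557, 41349 and 42448 normalized counts in the saline mice and 40918 to 69085 (median 60316) in the platelet fraction mice. In Mbp saline mouse 7143 lay above platelet fraction mice 7145 and 7151, and saline mice 7146 and 7152 were the lowest of all 11. Mbp rose 1.46-fold (exact permutation p = 0.0411). Myelin oligodendrocyte glycoprotein, Mog, rose 1.65-fold, Cnp, a cyclic nucleotide phosphodiesterase of the sheath, 1.44-fold, and the tight junction protein Cldn11 1.63-fold. Mag, the adhesion molecule between sheath and axon, rose 1.49-fold (exact permutation p = 0.0541), but its P was 0.0511 without saline mouse 7146. Tspan2, Bcas1, Mal and transferrin, Trf, rose 1.64-fold, 1.49-fold, 1.53-fold and 1.51-fold, and Trf is an iron carrier that oligodendrocytes make. The sheath list genes that did not pass included Enpp2 (log2 fold change 0.30), Nfasc (0.04) and Omg (−0.08).

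**Figure D2:**
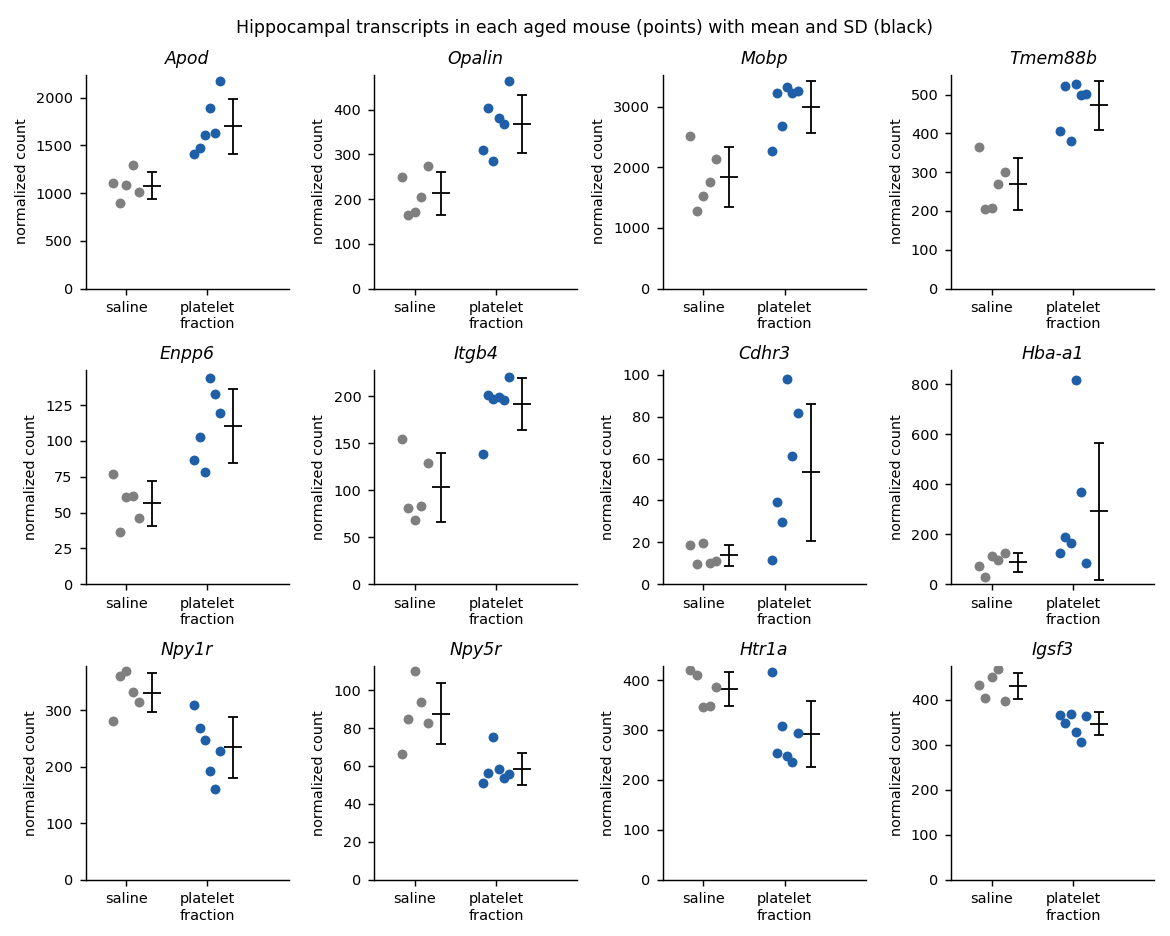
Normalized counts (y axes, from 0) of 12 genes in the 5 saline mice (grey) and the 6 platelet fraction mice (blue), with the mean and SD of each group in black. Apod, Opalin, Tmem88b, Enpp6 and Igsf3 show no overlap, and Cdhr3 and Hba-a1 spread widely among the platelet fraction mice. Mobp, Itgb4, Npy1r, Npy5r and Htr1a each have a single platelet fraction mouse within the saline range.

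The size of the myelin result depended on the libraries that stood apart. Saline mice 7146 and 7152 had the lowest scores for the myelin sheath list, a mean log2 distance of its genes from the 11-mouse mean, at −0.59 and −0.55, while the other saline mice had −0.05 to −0.17. Among the platelet fraction mice 7145 and 7151 had −0.12 and −0.06, next to the saline mice, and the other 4 had 0.34 to 0.53. With mice 7146, 7152 and 7148 left out, a choice made after seeing the data, 9 of 24 sheath genes still rose and the median log2 fold change was 0.30. Apod, Opalin, Mobp, Mog and Cnp were among those that passed, with log2 fold changes of 0.61, 0.56, 0.47, 0.45 and 0.29, whereas the limma P was 0.187 for Mbp. Tmem88b, which is not on the sheath list, passed as well (log2 0.57). Without platelet fraction mice 7154 and 7157, also chosen after seeing the data, 12 of 24 rose with a median of 0.50. Leaving out 1 mouse at a time gave 15 to 21, the lowest without saline mouse 7146.

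Among oligodendrocyte transcription factors 3 of 11 tested rose, 27.3% beside 2.41% of all genes, and 10 of 11 had a positive log2 fold change. Nkx6-2, a homeobox factor of mature oligodendrocytes, had 32.7, 16.7, 23.1, 13.4 and 30.4 normalized counts in the saline mice and 23.7 to 66 (median 48.1) in the platelet fraction mice. It rose 2.06-fold (exact permutation p = 0.0108) and kept that side of the threshold with any 1 mouse left out. Sox10 and Olig1, which act through most of the lineage, rose 1.36-fold and 1.27-fold, and these calls were weak, kept in 5 and 4 of the 11 fits that each left out 1 mouse, with the highest P, 0.0766, without saline mouse 7596 for Sox10 and, 0.112, without saline mouse 7146 for Olig1. Olig2 lay under the filter, with 6.54, 2.78, 5.32, 11.2 and 8.5 against 7.32 to 16.5 (median 9.91), and was not tested. Myrf, the factor that switches on myelin genes, did not pass (log2 0.23 ± 0.29 SE, exact permutation p = 0.511), nor did Tcf7l2 (log2 0.25 ± 0.14 SE).

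Genes of the stages before myelination were divided. Enpp6, chr8:46939197-47096762, a choline phosphodiesterase that marks newly formed oligodendrocytes, had 76.8, 36.1, 61.2, 61.5 and 46.2 in the saline mice and 78.2 to 144 (median 111) in the platelet fraction mice, with no overlap, and rose 1.96-fold (log2 0.97 ± 0.21 SE). It kept its call without mice 7146, 7152 and 7148 (log2 0.85). Of the 16 genes tested on the list of precursors and newly formed cells Enpp6 was the 1 that rose, 1 fell (Rprm, log2 −0.33), and the median was 0.02. The precursor receptor Pdgfra had 391, 168, 110.0, 339.7 and 338 against 123 to 410.0 (median 343) (log2 0.30 ± 0.36 SE), and the proteoglycan Cspg4 a log2 fold change of 0.05 ± 0.24 SE. Saline mice 7146 and 7152 and platelet fraction mouse 7148 were the lowest of all 11 for Pdgfra, and these are the mice apart from the others above.

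Of the 15 genes for myelin lipids 5 rose, 33.3% beside 2.41% of all genes. In this list 10 genes had a positive log2 fold change, and the median was 0.18. Ugt8a makes galactosylceramide, Fa2h hydroxylates its fatty acid, Cers2 and Elovl1 make very long chains and Aspa frees acetate from N-acetylaspartate. Ugt8a had 324, 250.1, 209, 394 and 332 against 299 to 522 (median 472). In Ugt8a only platelet fraction mouse 7151 lay within the saline range, and the rise was 1.49-fold. Cers2, Aspa, Fa2h and Elovl1 rose 1.26-fold, 1.46-fold, 1.45-fold and 1.29-fold. Fa2h was raised by platelet fraction mouse 7148, at 805 normalized counts, and still passed with mice 7146, 7152 and 7148 out (log2 0.48). Its P was 0.0703 without saline mouse 7155, and that of Elovl1 was 0.0719 without saline mouse 7146. Genes of cholesterol synthesis and transport, which myelin also needs, showed no such rise, with 0 of 36 called and a median of 0.04.

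The other higher genes of small P were of mixed function. Itgb4, the integrin β4 subunit, chr11:115974725-116008412, had 154, 80.6, 68.3, 82.7 and 129 against 138 to 220.2 (median 198). It rose 1.93-fold, and platelet fraction mouse 7145 was the lowest of its group. Anln, an actin-binding scaffold that also lies in myelin, rose 1.56-fold, and Lpar1, a receptor for lysophosphatidic acid on oligodendrocytes, 1.59-fold. The actin bundler Pls1 rose 1.61-fold without overlap between the groups. Phldb1, Litaf and Trim59 rose 1.50-fold, 1.52-fold and 1.69-fold. Il33, an alarmin stored in the nuclei of oligodendrocytes and astrocytes, had 639.9, 607, 568, 727 and 698 against 709 to 988 (median 931) and rose 1.39-fold (exact permutation p = 0.00649). The serine protease Klk6, named after its values were seen, rose 3.10-fold at low counts (31.9, 4.17, 9.75, 16.8 and 26.7 against 13.6 to 111 (median 54)). All genes of this paragraph kept P under 0.05 with any 1 mouse left out, and all but Klk6 also without mice 7146, 7152 and 7148.

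Transcripts of ciliated ependymal cells, the cells that line the ventricles, were higher in part of the platelet fraction group. Of 31 genes tested on the motile cilia list 29 had a positive log2 fold change, with a median of 0.58. The 6 that rose were 19.4%, beside 2.41% of all genes. Cdhr3, a cadherin of ciliated cells, chr12:33033795-33092901, had 18.8, 9.73, 19.5, 10.1 and 10.9 against 11.5, 39, 29.9, 97.9, 61.4 and 81.7. Mice 7154, 7595 and 7157 were the highest, mouse 7145 lay within the saline range, and the rise was 3.14-fold (log2 1.65 ± 0.46 SE, exact permutation p = 0.0195). Tppp3, which stabilises microtubules, had 253, 141, 166, 126 and 228 against 213 to 421 (median 350.4) and rose 1.82-fold. Ttll9, a tubulin-modifying enzyme of the axoneme, rose 1.95-fold at counts of 15.5, 9.73, 6.21, 7.82 and 10.9 against 13.6 to 31.9 (median 19.3). Foxj1, the master factor of motile cilia, had 23.7, 43.1, 19.5, 23.5 and 36.4 against 14.6, 39, 23.7, 74.8, 86.6 and 43.8 and did not pass (exact permutation p = 0.318). The number of cilia genes called was 15 without platelet fraction mouse 7145 and 3 without saline mouse 7152, and edgeR and DESeq2 called 11 and 13.

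Markers of neighbouring tissue moved with the same mice. The 21 choroid plexus genes gave 0 calls, with 20 positive log2 fold changes and a median of 0.32. Their summed counts ran from 1545 to 37059.7 in the saline mice and from 2307 to 64405 in the platelet fraction mice. Platelet fraction mice 7154 and 7157 had the highest list scores for choroid plexus, 1.60 and 1.61, and for cilia, 0.92 and 0.96. Without these 2 mice the median of the choroid list was −0.47 and that of the cilia list 0.10, with 3 cilia genes called. Transcripts of the pituitary, which lies below the brain and is no part of the hippocampus, were highest in these mice as well, a feature noticed after the values were seen. Growth hormone, Gh, had 13.1, 75, 2.66, 16.8 and 70.5 in the saline mice and 3.14, 48.3, 96.8, 834, 479 and 14.9 in platelet fraction mice 7145, 7148, 7151, 7154, 7157 and 7595, in that order. Prolactin, Prl, reached 125 and the hormone precursor Pomc 528, both in mouse 7154. The part of neighbouring tissue in the calls was not tested.

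Red cell transcripts were also highest in mice 7154 and 7157. Of the 4 genes tested on that list 3 rose, and the list median was a log2 fold change of 1.53. α-globin Hba-a1 had 74.4, 27.8, 114, 96.1 and 126 against 126, 187, 165, 817, 369 and 85.7 and rose 2.74-fold (log2 1.46 ± 0.53 SE, exact permutation p = 0.039). β-globin Hbb-b1 rose 3.03-fold, from 19.6, 49.3, 63.8, 27.9 and 10.9 to 52.3, 79.1, 62.8, 362, 179 and 28.9. Both were highest in mice 7154 and 7157, and without them neither passed (limma P of 0.0767 and 0.101), while the P of Hbb-b1 was 0.0538 without saline mouse 7596. Hba-a1 and Hba-a2 are nearly identical copies and share reads, so neither value is certain by itself. Bpgm, which makes the red cell metabolite 2,3-bisphosphoglycerate and is expressed in other cells too, rose 1.17-fold. No gene of a list of 18 blood leukocyte markers was high enough to be tested, and their summed counts were 11.4 to 22.2 in the saline mice and 17.5 to 42.1 in the platelet fraction mice.

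**Figure D3:**
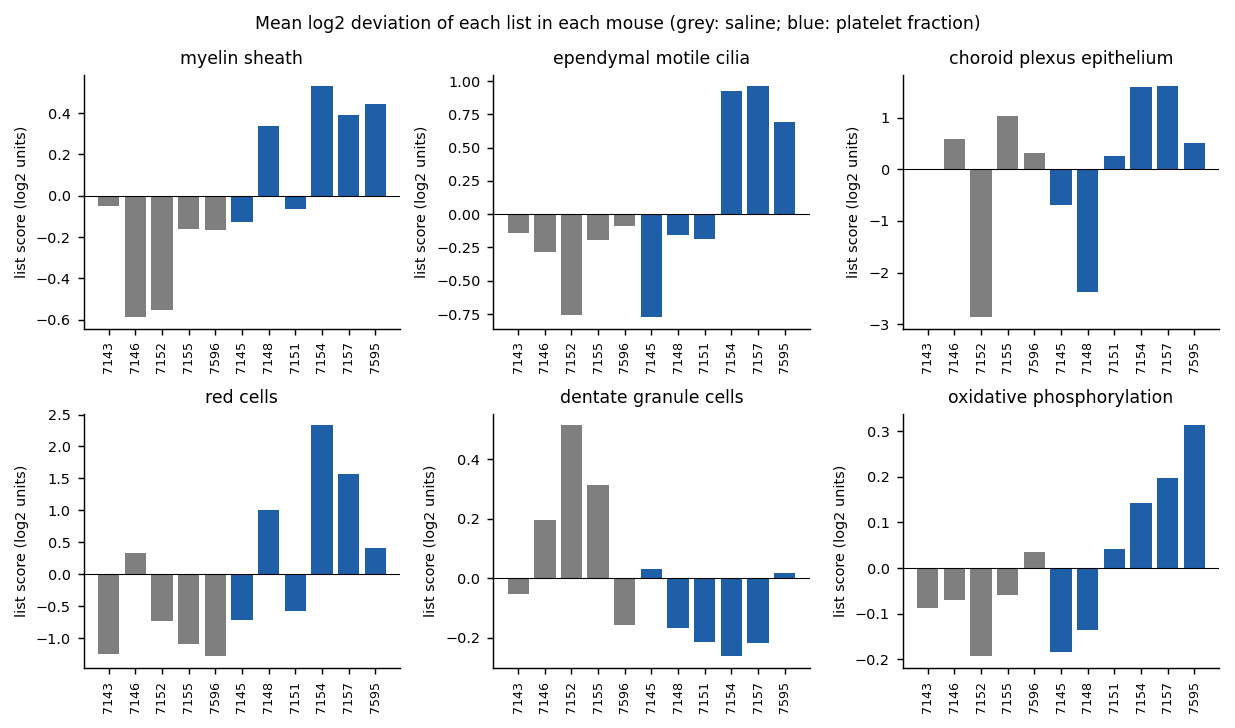
Score of 6 gene lists in each mouse (x axis, mouse number), the mean over the tested list members of the log2 distance from the 11-mouse mean (y axis, log2 units), with saline in grey and the platelet fraction in blue. Mice 7154 and 7157 are high for cilia, choroid plexus and red cells together, and saline mice 7146 and 7152 are low for myelin.

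Neurons of the dentate gyrus gave the lowest median of any list. Of the 22 genes tested on the dentate granule cell list 4 fell and 0 rose, so that 18.2% fell beside 1.46% of all genes. In the same list 3 had a positive log2 fold change, 13.6% beside 50.5% of all genes, and the median was −0.26. Trpc6, a cation channel of granule cells, had 315, 415, 415, 339 and 279 against 190.3 to 319 (median 215). Only platelet fraction mice 7145 and 7148 lay within the saline range, and Trpc6 fell by 0.58 on the log2 scale (exact permutation p = 0.0195). Plk5, Synpr and Tdo2 fell by 0.60, 0.41 and 0.61. For these 3 saline mouse 7152 was the highest of all mice, and without it their P was 0.0642, 0.119 and 0.133. The granule cell factor Prox1 did not pass (log2 −0.27 ± 0.14 SE). The number of granule cell genes called was 1 without saline mouse 7152 and 8 without platelet fraction mouse 7145. The pyramidal cell lists gave 0 calls among 17 CA1, 11 CA2 and 15 CA3 genes.

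Npy1r and Npy5r, inhibitory receptors for neuropeptide Y, both fell. They lie side by side, at chr8:66697149-66706800 and chr8:66679965-66688094. Npy1r had 282, 361, 369, 332 and 315 in the saline mice and 160.0 to 309.6 (median 237) in the platelet fraction mice. Npy5r had 66.2, 84.8, 110.0, 93.9 and 82.6 against 51.3 to 75.1 (median 56.2). A single platelet fraction mouse lay within the saline range of each, mouse 7145 for Npy1r and mouse 7151 for Npy5r. They fell by 0.53 ± 0.15 SE and 0.57 ± 0.16 SE on the log2 scale (exact permutation p = 0.0108 and 0.00649), and both passed without mice 7146, 7152 and 7148 and without mice 7154 and 7157. Npy itself had 592, 534, 587, 596 and 644 against 471 to 793 (median 567) and did not pass (log2 −0.04 ± 0.12 SE). Pdyn, the precursor of the dynorphin opioids in granule cells, fell by 0.59 (exact permutation p = 0.0303), but its limma P was 0.0824 without mice 7154 and 7157. Npy1r, Npy5r and Pdyn were the 3 calls among 39 neuropeptide and receptor genes tested, so that 7.69% fell beside 1.46% of all genes.

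The serotonin receptor gene Htr1a, chr13:105443693-105448133, had 419, 411, 345, 349 and 386 in the saline mice and 415, 254, 309, 249, 236 and 293 in the platelet fraction mice. Mouse 7145, at the saline level, was the exception in a group that otherwise lay below all saline mice, and Htr1a fell by 0.41 ± 0.14 SE (exact permutation p = 0.0281). Without platelet fraction mice 7154 and 7157 Htr1a did not pass (log2 −0.28, limma P of 0.0725). Among 27 receptors for monoamines and acetylcholine Htr6 was the single rise (1.60-fold, kept in 8 of 11 fits with 1 mouse left out, and limma P of 0.0634 without saline mouse 7596). Glutamate receptor and postsynaptic genes gave 2 falls among 40 tested, 5% beside 1.46% of all genes: the metabotropic receptor Grm2 (log2 −0.48) and serine racemase Srr, which makes D-serine (log2 −0.20). The calls of Srr, Grm2, the potassium channel subunit Kcnab1 (log2 −0.32), the interneuron gene Lamp5 (log2 −0.29) and the granule cell factor Neurod1 (log2 −0.29) were each kept in only 4 or 5 of the 11 fits that left out 1 mouse. Their highest P was 0.0765 for Srr without platelet fraction mouse 7148, 0.119, 0.0769 and 0.141 for Grm2, Kcnab1 and Neurod1 without saline mouse 7152, and 0.0975 for Lamp5 without saline mouse 7596. Genes of synaptic vesicle release, of GABA receptors and of the immediate early response gave 0 calls among 24, 17 and 24 tested.

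The genes of the smallest P among those lower were of mixed function. Igsf3, an immunoglobulin superfamily membrane protein, had 432, 405, 450.4, 468 and 398 against 306 to 369 (median 357) without overlap, and fell by 0.31 (exact permutation p = 0.00216). Fam160a1 fell by 0.51. Pcdhga10 fell by 0.64, and as a member of the γ-protocadherin cluster it shares its last exons with its neighbours, so its reads are uncertain. Atxn2, an RNA-binding protein, had 189.6, 182, 159.6, 152 and 163 against 121 to 144 (median 138). It fell by 0.33, again without overlap. Ift122, of the transport system within cilia, fell by 0.26, Atg14, of the autophagy kinase complex, by 0.29, and the synaptic scaffold Cask by 0.23, all 3 without overlap. The proteinase Bmp1 fell by 0.48, the astrocytic glypican Gpc5 by 0.26, the small GTPase Arf3 by 0.25 and the helicase Ercc2 by 0.34. All of these kept P under 0.05 with any 1 mouse left out and without mice 7146, 7152 and 7148. The log2 fold changes of these lower genes ran from −0.64 to −0.23, and those of the 15 leading higher genes from 0.48 to 0.97.

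Microglia gave 2 falls and 0 rises among 20 genes tested, so that 10% fell beside 1.46% of all genes, with a median of −0.07. Tmem119, a membrane marker of resident microglia, had 598, 589, 666, 678 and 590.3 against 456 to 602 (median 510.0) and fell by 0.26 ± 0.09 SE (exact permutation p = 0.0238). Without platelet fraction mice 7154 and 7157 Tmem119 did not pass (log2 −0.18, limma P of 0.0933). Siglech, a sialic acid receptor of microglia, had 275, 292, 316, 267 and 265 against 190.4 to 258 (median 243) and fell by 0.28, with limma P of 0.0544 without saline mouse 7152. Other defining markers did not pass: P2ry12 (log2 −0.31 ± 0.21 SE), Csf1r (−0.22 ± 0.11 SE) and Aif1, which encodes IBA1 (0.15 ± 0.22 SE). Itgam, which encodes CD11b, had 328, 186, 200.4, 280.5 and 341 against 174 to 262 (median 225) and did not pass (log2 −0.24 ± 0.17 SE, exact permutation p = 0.219), whereas without mice 7146, 7152 and 7148 its P was 0.00339 (log2 −0.46). Cd68 had a log2 fold change of 0.07 ± 0.13 SE. Of 14 genes of activated microglia tested only Cd9 rose (1.29-fold), and its P was 0.121 without saline mouse 7152. Cd9 is also expressed by oligodendrocytes.

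The study followed inflammation by other assays in other mice, and the same genes were looked up here. Tnf and Il1b were too low to test, at 0.817, 2.08, 0, 1.12 and 0 and 1.63, 0, 0, 2.23 and 2.43 normalized counts in the saline mice and at most 2.09 and 4.4 in the platelet fraction mice, and so were Ccl2 and Cxcr3, so no difference was detectable at this depth. C1qb, a subunit of the complement initiator, had 1065, 751, 1036, 907 and 913 against 889 to 1132 (median 1052). The groups overlapped, and the log2 fold change was 0.15 ± 0.10 SE (exact permutation p = 0.177). Nfkb1 and its inhibitor Nfkbia had log2 fold changes of −0.03 ± 0.21 SE and 0.16 ± 0.13 SE, and Tnfsf13b, which encodes BAFF, 0.15 ± 0.35 SE. Of 38 genes of TNF, IL-1 and NF-κB signalling 4 rose, 10.5% beside 2.41% of all genes, and 0 fell: Il33, the ligand Tnfsf10 and the NF-κB subunits Rel and Relb, at 1.39-fold, 1.74-fold, 1.57-fold and 1.36-fold. Other than Il33 these calls were kept in 4 or 5 of the 11 fits with 1 mouse left out, and their highest P was 0.088 and 0.107 for Tnfsf10 and Relb without saline mouse 7146 and 0.112 for Rel without saline mouse 7152.

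In the complement list C4b was the single call of 20 tested. It had 1275, 614, 736, 1076 and 981 against 1021 to 1561 (median 1278) and rose 1.40-fold (exact permutation p = 0.0476), and without mice 7146, 7152 and 7148 its P was 0.227. C3 had 30.2, 14.6, 23.1, 20.1 and 26.7 against 7.32 to 76.7 (median 49.5) and did not pass (exact permutation p = 0.214). Among reactive astrocyte genes the intermediate filament Vim rose 1.31-fold, from 183, 180.0, 204, 201 and 153 to 197 to 269 (median 254), whereas Gfap had a log2 fold change of −0.00 ± 0.14 SE. Of 20 astrocyte identity genes 1 fell, the glutamate transporter Slc1a3 (log2 −0.19, limma P of 0.128 without saline mouse 7152). Chemokines, antigen presentation, brain endothelium, pericytes and meningeal fibroblasts gave 0 calls among 11, 23, 21, 14 and 18 genes tested.

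Interferon response genes gave 2 rises among 41 tested, 4.88% beside the 2.41% of all genes, with a median of 0.13. The promoter of Ifit3 is shown because it carries matches to the interferon-stimulated response element. The window is chr19:34583279-34583528 on the plus strand, 250 bases before a RefSeq start that lies inside the interval of the gene, chr19:34583119-34588982, and the capitals mark the letters GAAA, any 2 bases and GAAA again, on either strand.
Ifit3: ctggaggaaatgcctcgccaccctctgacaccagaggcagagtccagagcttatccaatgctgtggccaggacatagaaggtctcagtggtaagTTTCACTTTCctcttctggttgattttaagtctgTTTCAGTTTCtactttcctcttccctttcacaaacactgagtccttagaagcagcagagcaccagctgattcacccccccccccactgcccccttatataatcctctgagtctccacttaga
Both matches were on the other strand, 146 and 112 bases before that start, and 11 of 32 list genes with a window held such a match, 34.4%, beside 821 of 27025 genes, 3.04%. Ifit3, an antiviral protein induced by interferon, had 146, 121, 161, 186 and 196 normalized counts in the saline mice and 174 to 287 (median 228) in the platelet fraction mice. It rose 1.41-fold (log2 0.50 ± 0.16 SE, exact permutation p = 0.0195). Xaf1, an interferon-induced gene of apoptosis, rose 1.66-fold (exact permutation p = 0.0108), and both passed with any 1 mouse left out.

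Of 22 genes of neurotrophins, CREB and plasticity 2 rose and 2 fell, 9.09% each way beside 2.41% and 1.46% of all genes. Ngfr, the low-affinity neurotrophin receptor, had 72.7, 50.7, 48.8, 64.8 and 64.4 against 66.8 to 118 (median 97) and rose 1.55-fold (exact permutation p = 0.0108). Cntf, a glial neurotrophic factor, rose 1.77-fold at 11.4, 6.25, 8.87, 6.71 and 10.9 against 9.26 to 25.3 (median 17.6) normalized counts, and was kept in 6 of 11 fits with 1 mouse left out, with limma P of 0.0622 without saline mouse 7146. Ntrk3, the receptor of neurotrophin 3, and the CREB coactivator Crtc1 fell by 0.25 and 0.24, and both missed the threshold without saline mouse 7152 (limma P of 0.0503 and 0.0544). Bdnf had 472, 537, 789, 509.6 and 548 against 438 to 683 (median 488) and did not pass (log2 −0.14 ± 0.14 SE, exact permutation p = 0.405). Ntf3, Tmem108 and Creb1 did not pass either, with log2 fold changes of −0.38 ± 0.20 SE, −0.20 ± 0.16 SE and 0.37 ± 0.30 SE.

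Nuclear genes of oxidative phosphorylation shifted slightly upwards as a list. Of 85 tested 74 had a positive log2 fold change, 87.1% beside 50.5% of all genes, with a median of 0.15, and 5 rose, 5.88% of them. Ndufa12, of respiratory complex I, had 675, 644, 622, 704 and 827 against 731 to 988 (median 813) and rose 1.20-fold. The other 4, Ndufa4, Atp5g2, Uqcrq and Atp5j2, rose 1.19-fold, 1.18-fold, 1.20-fold and 1.25-fold, and were kept in 6, 4, 3 and 3 of 11 fits with 1 mouse left out. The count was 31 without platelet fraction mouse 7145 and 1 without saline mouse 7152, and 0 without mice 7154 and 7157. Ribosomal protein genes had a median of 0.14 with 72 of 81 positive and 1 call, Rps13 (1.20-fold), which became 7 without platelet fraction mouse 7145. In both lists platelet fraction mouse 7595 had the highest score of all 11 mice, 0.31 and 0.46, and mouse 7145 one of the lowest.

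Iron and lysosome genes gave a few rises, 2 of 18 (11.1%) and 2 of 40 (5%) tested, beside 2.41% of all genes. Fth1, the heavy chain of the iron store ferritin, had 25102, 20834, 24422, 22167 and 24166 against 22918 to 36587 (median 29436) and rose 1.21-fold. Trf of the myelin list rose 1.51-fold, with the limits given above. Tfeb, the factor that drives lysosome genes, and the cholesterol exporter Npc1 rose 1.54-fold and 1.22-fold among 40 lysosome genes tested. These 3 calls other than Trf were kept in 5 or 6 of the 11 fits with 1 mouse left out, with the highest P 0.0675 and 0.0904 for Fth1 and Tfeb without saline mouse 7146 and 0.109 for Npc1 without saline mouse 7152. In the matrix list Lama2, a laminin chain, rose 1.59-fold and the proteinase Adamts4, which oligodendrocytes express, 1.48-fold, and both passed with any 1 mouse left out. Circadian clock genes and heat shock genes gave 0 calls among 21 and 28 tested.

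**Figure D4:**
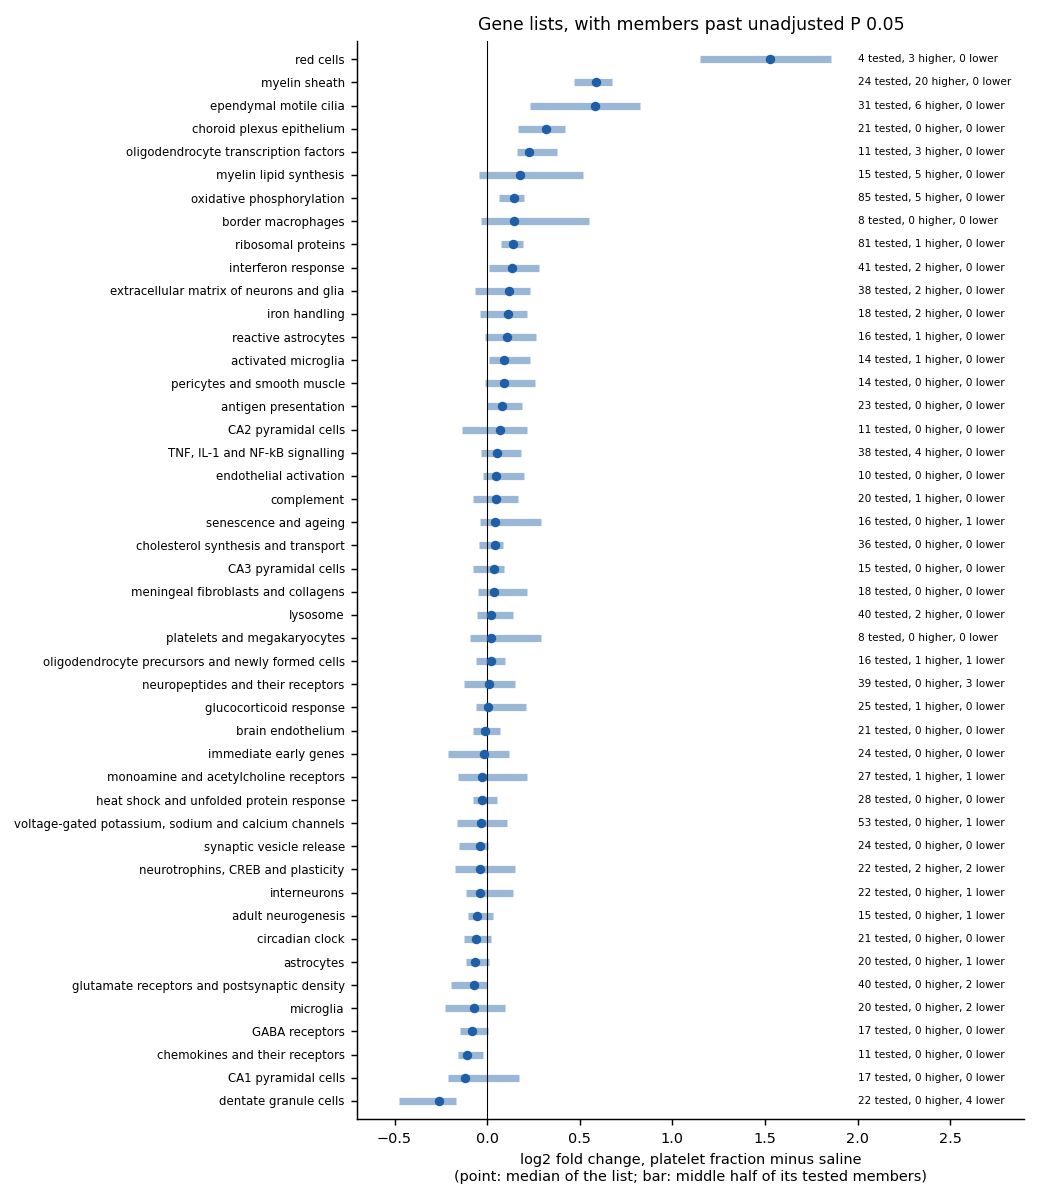
Median log2 fold change (points) and the middle of the distribution, from the first to the third quartile (bars), of the tested members of 46 gene lists (y axis), platelet fraction over saline (x axis), with the number tested and called at the right. Red cells, myelin sheath and cilia lie farthest above 0, dentate granule cells farthest below, and most lists lie near the 0.002 of all genes.

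The largest fitted folds came from genes whose reads can be split between near-identical copies. Amd1, S-adenosylmethionine decarboxylase, had 1116, 429, 278, 1099.6 and 379 in the saline mice and 0, 319.6, 322, 0, 0 and 633 in the platelet fraction mice. Amd2, a copy of the same gene, had 24.5, 664, 914, 4.47 and 686 against 1340.0, 853, 579.6, 1068, 957 and 587. Saline mice 7143 and 7155, with the highest Amd1, had the lowest Amd2, and the 3 platelet fraction mice at 0 for Amd1 had the highest Amd2. The counting could assign the same reads to either, so neither call was read as a change. The pseudogene Atp6v0c-ps2, at 0 in 4 of the 6 platelet fraction mice and in 1 saline mouse, is uncertain for the same reason. These 3 genes were singled out after their values were seen.

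The young plasma preparation still holds platelets, and the platelet fraction was therefore set directly against it, on reads of both tables scaled together. Of 13693 genes tested 260 passed an unadjusted P of 0.05, 1.9%, with 114 (0.833%) higher and 146 (1.07%) lower after the platelet fraction, and none passed an adjusted p of 0.05 in limma, where the smallest was 0.999. No myelin sheath gene was among the 260, and the median difference of that list was 0.11. Of 16 genes tested on the list of precursors and newly formed cells 3 were lower and 0 higher, with a median difference of −0.02. On that scale Apod had a mean of 1053 ± 140.5 in saline, 1656 ± 279 in platelet fraction and 1512 ± 443 in plasma mice (SD, n = 5, 6 and 6), and platelet fraction minus plasma was 0.16 (95% interval −0.18 to 0.49) on the log2 scale. Opalin had 208 ± 46.6, 359 ± 62.8 and 303 ± 77.8, with a difference of 0.27 (95% interval −0.10 to 0.63). Npy1r had 324 ± 34.6, 229 ± 52.6 and 259.8 ± 36.8, with a difference of −0.20 (95% interval −0.53 to 0.12). In these 3 genes the plasma mice lay between the other groups on average, and all 3 intervals hold 0, which does not show that the treatments act alike. Comparisons of each treatment with saline share the same 5 saline mice and were not set against each other.

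Of the genes named above, 11 differed between the treatments at that threshold, which 1.9% of all genes passed. Many genes were named because these same platelet fraction mice differed from saline. That favours a difference from plasma as well, so the 11 are a description and no separate evidence. Hba-a1 had 85.5 ± 37.7, 284 ± 268 and 98 ± 44.6 in saline, platelet fraction and plasma mice, and was higher after the platelet fraction by 1.23 (95% interval 0.21 to 2.25) (adjusted p = 0.999 in limma). Hbb-b1 was higher by 1.23 (95% interval 0.15 to 2.32). Gh was higher by 5.22 (95% interval 2.77 to 7.67), against plasma mice with a mean of 2.5 ± 5.23. Tmem119 had 609.9 ± 43, 512 ± 56.2 and 606 ± 75.4, and was lower after the platelet fraction by a log2 difference of −0.24 (95% interval −0.45 to −0.03). Anln, Trim59, Rel and Ndufa12 were higher after the platelet fraction by 0.37, 0.49, 0.76 and 0.20, and Pomc, high in mouse 7154, by 2.36. Rprm and Gpc5 were lower, with log2 differences of −0.42 and −0.21. Among the cilia genes Cdhr3 showed no difference past the threshold, 0.34 (95% interval −0.63 to 1.3). Without platelet fraction mouse 7148 the number of genes that differed was 448, and 438 without plasma mouse 7159 and 397 without platelet fraction mouse 7151.

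**Figure D5:**
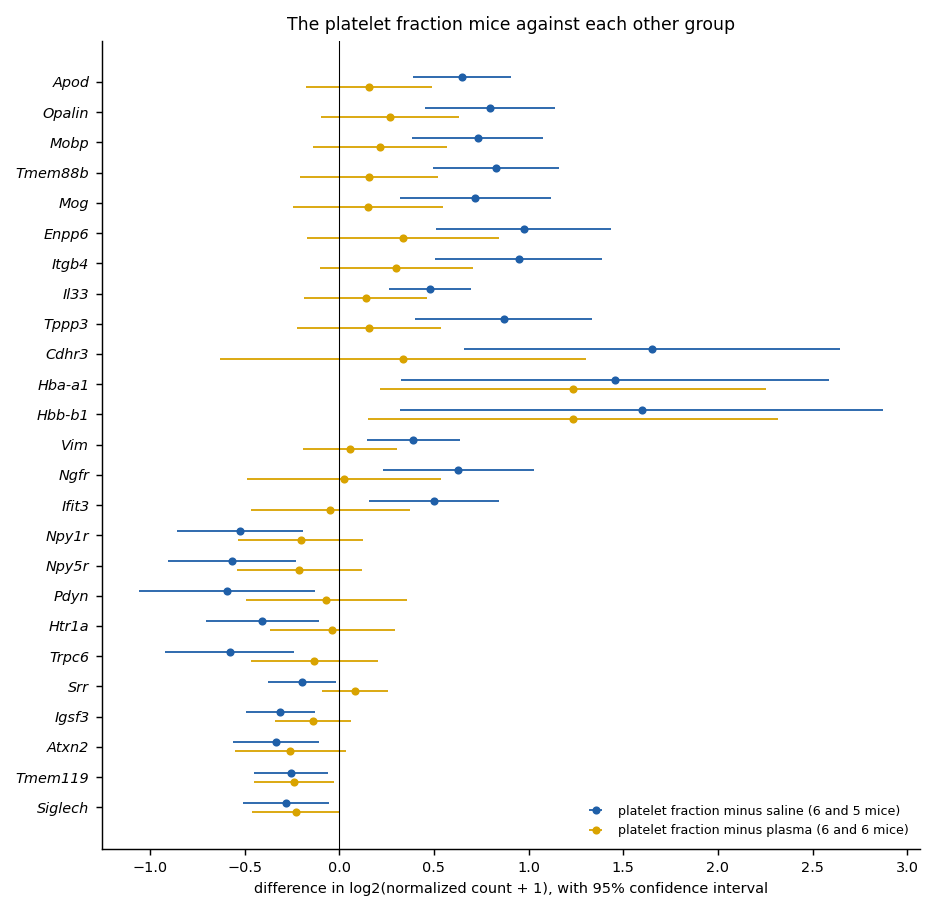
Differences in log2(normalized count + 1) with 95% confidence intervals (x axis) for 25 genes (y axis), platelet fraction minus saline in blue and platelet fraction minus plasma in yellow. Most differences from saline exclude 0, as the genes were largely chosen for it, whereas those from plasma include it for most genes, with Hba-a1, Hbb-b1 and Tmem119 as exceptions.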

How the data were processed

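RNA from whole hippocampus was sequenced. Per the labels, STAR, RSEM and DESeq2 were the tools and mm10 the genome. The authors deposited a normalized count per gene and library, a signal in which the RSEM count is scaled by DESeq2 for library size, beside fold changes and p-values of their own comparison, which were not used. The study's methods name a Smart-Seq2 protocol and the labels a strand-specific kit, and neither settles which was used, so antisense and overlapping genes are uncertain. Values were whole multiples of a step, so reads were recovered for 100% of values, within 0.01 of a read. The total per library limits the precision of low genes, and without molecular identifiers PCR copies count as reads.

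Libraries were grouped by their labels. In the 11 hippocampi limma 3.58.1 (R 4.3.3, trend, two-sided) was run on log2(normalized count + 1), for genes at 10 or more in at least 5 libraries, at an unadjusted P of 0.05, with Benjamini-Hochberg adjustment over all genes tested. The fit was tested on simulated data. Fold changes are on that log2 scale and understate low genes. Single genes also had an exact two-sided permutation test over 462 splits. The platelet fraction and plasma libraries were fitted after their recovered reads had been scaled together. Tried as alternatives were edgeR 4.0.16 and DESeq2 1.42.0 on recovered reads, scaling by TMM or by totals, another filter (none, or 50) or pseudocount (0.5, or 5), and each library left out. Fits without 3 libraries that stood apart and without 2 libraries high in growth hormone transcript were added after seeing the data.

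Named genes were the 15 per direction with the smallest limma P at a mean normalized count of at least 50, up to 5 members of each of 48 lists, defining markers and the genes the study names, and a few others are said to be chosen after their values were seen. A few genes that this rule names are not reported here. The members and lists were chosen with earlier results of these data known. Coordinates and promoters are from RefSeq on GRCm38.p6, and 12986 of the 13603 genes tested matched a RefSeq symbol.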

Additional observations from a re-analysis of the deposited data

Results flagged for a closer look

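In 296 groups of values, 21 had a highest or lowest mouse far from the rest of its group by Dixon's test, 7.09%, where chance flags about 1 in 20. Among the genes named above, platelet fraction mouse 7145 was the lowest of its group for Itgb4, at 138 normalized counts, and for Relb, at 100.4, and mouse 7151 was the lowest for Il33, at 709, and the highest for Npy5r, at 75.1. Mouse 7148 was the highest for Fa2h, at 805, and held the single Ppbp read, a normalized count of 1.03. Mouse 7154 was the highest for Pomc, at 528. Mouse 7595 was the highest for Bdnf, at 683, for Tnfsf13b, at 19.9, and in the score of ribosomal proteins, at 0.46 log2 units. Mouse 7145 was the highest for Atp6v0c-ps2, at 340, where 4 mice were at 0.

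Among the saline mice, 7152 was the highest for Plk5, at 1518, for Neurod1, at 238, for Grm2, at 1252, for Bmp1, at 269, and for Bdnf, at 789, and the lowest in the scores of choroid plexus, at −2.86, and motile cilia, at −0.76. Mouse 7155 was the lowest for Nfkb1, at 39.1. Mouse 7146 held all of the saline signal of Hba-a2, at 94.5, and mouse 7596 was the highest for Rarres2, at 70.5, a chemerin gene of the cilia list.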

How the results depend on the processing

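All 527 calls rest on an unadjusted threshold, and depth, 6140510 to 10522699 reads, leaves transcripts near 10 normalized counts with wide errors. Counts of calls moved by over 1.5 times in several of the fits below, though not in all. Without the filter 309 genes were lower. DESeq2 passed 11 genes at adjusted p. Without the 2 libraries highest in growth hormone transcript 230 genes passed, 140 higher and 90 lower. With 1 library left out the calls ranged from 347 to 876, the higher ones from 219 to 530 and the lower ones from 115 to 356, and platelet fraction against plasma from 208 to 448, while adjusted calls stayed at 0. Without the 3 libraries that stood apart the count moved by less, to 416, of which 180 were among the 527. With TMM scaling 52.1% of the calls were higher, beside 62.2%, and the median of all genes was −0.01. The cause of these shifts was not tested.

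Of 96 named genes called, 39 kept their call under every alternative and with every single library left out, another 39 lost it in some fit with 1 library left out, and none reversed its direction. No paired analysis was possible because each hippocampus carries its own mouse number and the groups share none.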

Other observations

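Of the 26 called genes with a log2 fold change above 1 or below −1, 14 had a mean under 20 normalized counts over the 11 mice, 11 of them higher and 3 lower in limma at the unadjusted threshold, and those given here were picked after their values were seen. Dnaaf3, a factor that assembles the dynein arms of motile cilia, had a log2 fold change of 1.3 ± 0.41 SE, Iqcd, of the dynein regulatory complex, 1.31 ± 0.46 SE and Lrrc71 1.64 ± 0.60 SE. Lipg, endothelial lipase, had 1.44 ± 0.40 SE and the proteinase Adamts14 1.21 ± 0.34 SE. In the other direction Myo18b, a myosin of muscle, had −1.70 ± 0.44 SE and Col9a2, a collagen chain of cartilage, −1.53 ± 0.43 SE.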
